A study of Mus musculus with 13 samples.

Results

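The glycolysis control enzymes examined here are 9 genes that set or mark the flow of glucose to pyruvate in the liver, namely Gckr, Hk1, Hk2, Hk3, Pfkl, Pfkfb1, Pfkfb3, Pklr and Tpi1. They were chosen by gene symbol. A gene counted as measured where the platform annotation gave a probe set that symbol and no other, and the brightest such probe set, by its mean over the 13 arrays, stood for the gene. Of the 9 genes, 8 had such a probe set, out of 19938 named genes in all. Pfkfb1 had no single-symbol probe set and is not analysed here. Hk1 had more than 1. The brighter one, which the rule keeps, resembled probe sets shared with a ribosomal protein gene and may not measure Hk1, as described with the hexokinases.

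Liver RNA came from male wild-type C57BL/6N mice of 5 to 6 months. The STZ group (6 mice) had received streptozotocin, a toxin of the insulin-producing beta cells, by intraperitoneal injection of 65 mg/kg on 5 consecutive days at 10 to 16 weeks of age. The control group (7 mice) was mock-injected with citrate buffer, per the sample labels, while the series design text describes it by a standard diet. Livers were taken 9 to 11 weeks later, and each mouse gave 1 array. The labels give no blood glucose or insulin of single mice. The series as a whole asks, by its title, how mitochondria of the liver adapt in diabetes. The arrays were alike in overall level, with medians within 0.09 of each other and correlations between arrays of 0.982 to 0.997, and the number of arrays limits the precision of every value given here. The labels call the samples biological replicates, so the tests measure the spread between mice.

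Some reactions of glycolysis are practically irreversible and carry its control: the phosphorylation of glucose by hexokinases, that of fructose 6-phosphate by phosphofructokinase, and the last step, catalysed by pyruvate kinase. In hepatocytes the first step is restrained by the regulatory protein that Gckr encodes, and phosphofructokinase answers to a signal metabolite made and removed by the bifunctional Pfkfb enzymes. After a carbohydrate meal, insulin, through SREBP-1c, and glucose, through ChREBP (encoded by Mlxipl), raise the transcription of this pathway and of fat synthesis together, and pyruvate kinase of the liver is a classic target of ChREBP.

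The starts of Pklr are shown here because Pklr was the member that fell, and because the element through which glucose acts on this gene lies at its liver start. Pklr has 2 starts, which lie 481 bases apart and are used in red cell precursors (upstream) and in liver (downstream). The sequences are those of RefSeq on GRCm38.p6, each from 250 bases before to 50 bases after the start, on the plus strand, in lower case with motif matches in capitals. In the downstream sequence the capitals mark first a carbohydrate response element and then an HNF1 site, the binding motif of a hepatocyte transcription factor. In the upstream sequence they mark a GATA motif, the type of site bound by erythroid factors.
Pklr downstream start, chr3:89136373-89136672: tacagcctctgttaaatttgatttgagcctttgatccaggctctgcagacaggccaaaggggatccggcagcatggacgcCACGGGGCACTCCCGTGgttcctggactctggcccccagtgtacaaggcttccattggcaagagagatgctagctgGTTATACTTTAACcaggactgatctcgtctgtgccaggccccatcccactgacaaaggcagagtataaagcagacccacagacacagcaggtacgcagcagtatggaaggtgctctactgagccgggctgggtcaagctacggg
Pklr upstream start, chr3:89135892-89136191: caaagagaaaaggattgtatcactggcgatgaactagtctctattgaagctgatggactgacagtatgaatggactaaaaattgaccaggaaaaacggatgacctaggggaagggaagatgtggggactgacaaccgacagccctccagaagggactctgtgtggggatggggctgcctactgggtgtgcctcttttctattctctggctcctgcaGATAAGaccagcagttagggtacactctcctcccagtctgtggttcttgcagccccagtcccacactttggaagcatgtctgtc

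The carbohydrate response element was searched as CACGNG and CNCGTG with any 5 letters between them, on both strands, and its match in Pklr begins 170 bases before the start. These letters occurred in 15 of 32851 promoters of the same length (0.0457%), which belong to 14 genes, and in 1 of the 15 promoters of the 9 members. Among the 9 of those 14 genes that were measured, Pklr was the one that fell and Irak1bp1 (0.28 ± 0.07) the one that rose, with a median difference of -0.02. By the same test, given below, 4.04% of all genes fell and 5.09% rose. The HNF1 letters, GTTA and TAAC with any 5 letters between them, begin 94 bases before the downstream Pklr start and occurred in 0.332% of all promoters. GATAAG, searched on both strands, was found in the upstream Pklr promoter, in the Gckr promoter and in 1 Pfkfb1 promoter, against 7.44% of all promoters. The E-box CACGTG was found in 1 Pfkfb3 promoter, against 7.15% of all. A match describes the letters of the window, and its absence says nothing about other parts of a gene. The array has 1 probe set for Pklr, whose annotation lists both transcripts, so the liver and red cell forms are measured together.

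Of the 8 measured members, 3 passed the test for a difference between STZ and control livers: Pklr, pyruvate kinase, was lower by 1.20 ± 0.23 (log2 units, with the SE that limma estimated), and Gckr, a regulatory protein of glucose phosphorylation, and Tpi1, triosephosphate isomerase, were higher by 0.27 ± 0.06 and 0.20 ± 0.05. The test was limma's moderated test on log2 intensities with Benjamini-Hochberg adjustment over all 19938 genes and a threshold of 0.05, and it called 9.12% of all genes (5.09% higher, 4.04% lower). Hk1, Hk2, Hk3, Pfkl and Pfkfb3 did not pass. The median difference of the 8 was -0.04, beside -0.01 over all genes. The members were chosen with earlier results of these data known, so their count is given beside the background share and not as a finding about the group. In whole tissue, fewer cells of a type and less RNA per cell cannot be told apart.

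**Figure D1:**
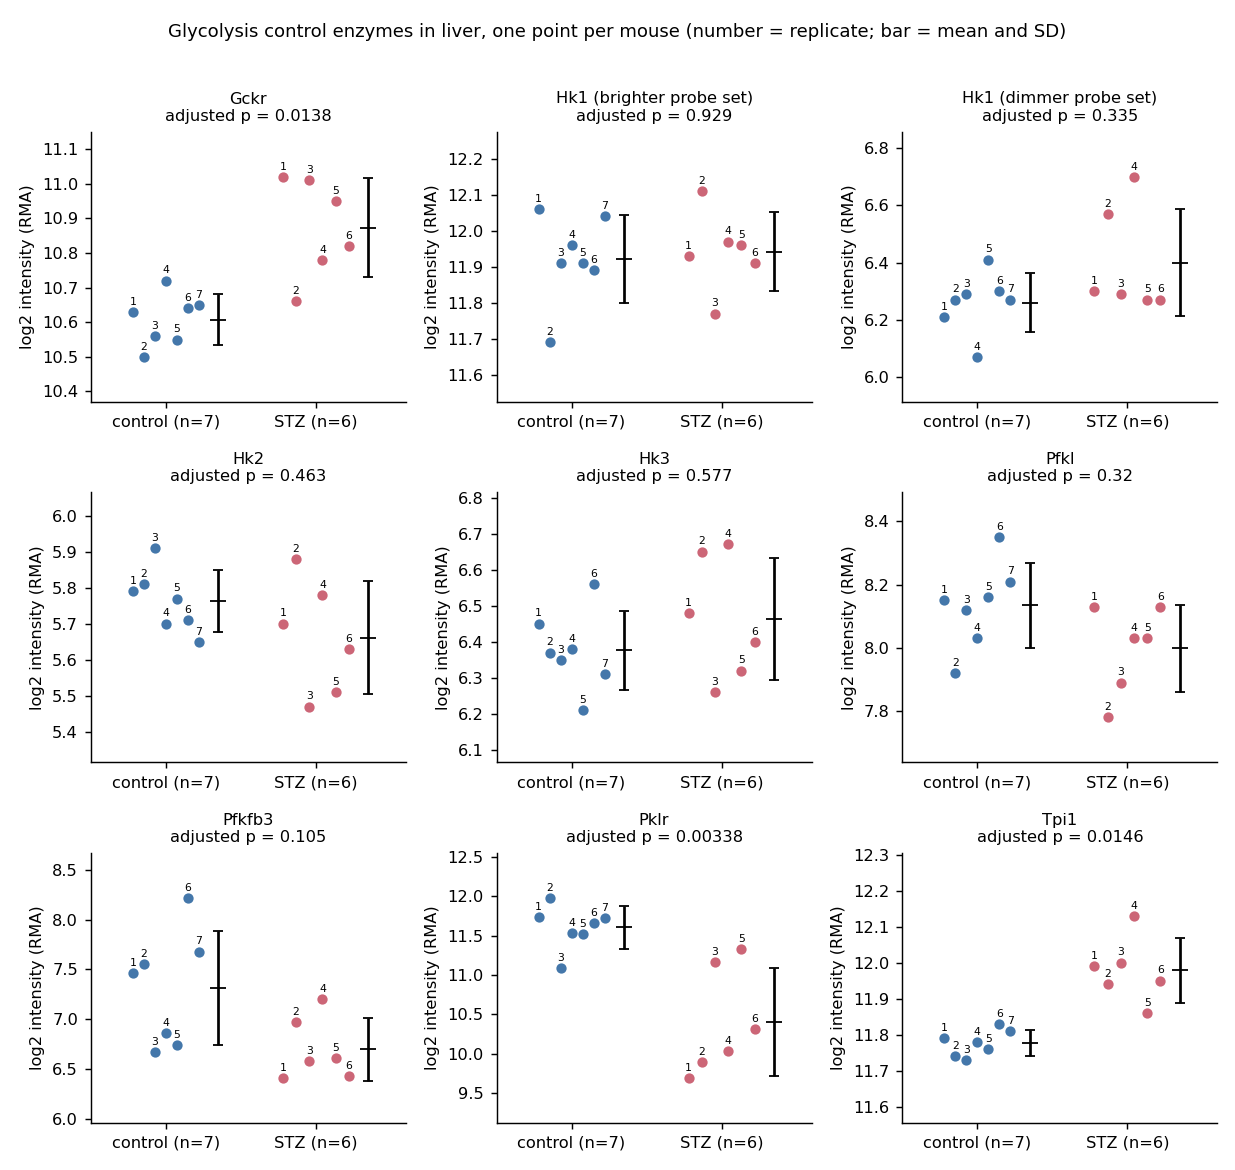
Log2 intensity of each measured member in every mouse, with both Hk1 probe sets; points carry the replicate number and bars show the mean and SD of 7 control and 6 STZ arrays. The groups are apart for Tpi1, 4 STZ mice lie far below the controls for Pklr while replicates 3 and 5 lie among them, and Gckr is above all controls in 5 of 6 STZ mice; each panel has its own intensity axis.

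The first step of the pathway was represented by Gckr and by the hexokinases Hk1, Hk2 and Hk3. In controls, Gckr ran from 10.50 through a median of 10.63 to 10.72, and in STZ livers from 10.66 through 10.88 to 11.02. Of the 6 STZ mice, 5 lay above every control, and STZ replicate 2 (10.66) lay inside the control range. The group means were 10.61 ± 0.07 (SD, n = 7) and 10.87 ± 0.14 (SD, n = 6), a 1.20-fold difference with a 95% interval of 0.13 to 0.40 on the log2 scale (limma, adjusted p = 0.0138). The spread among the STZ mice was wider than among controls, and the call was kept whichever of the 13 arrays was omitted, with differences of 0.24 to 0.31.

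Hexokinase 2, the insulin-responsive form of muscle and fat, gave low signals in liver. Hk2 ran from 5.65 through 5.77 to 5.91 in controls and from 5.47 through 5.67 to 5.88 in STZ livers, all below 6.65, the median of the gene means on these arrays. In 3 STZ mice, replicates 3, 5 and 6, it lay below all controls, and the others overlapped them. The difference of -0.10 ± 0.07 did not pass (limma, adjusted p = 0.463), with a 95% interval of -0.24 to 0.04. Hexokinase 3, an enzyme mainly of myeloid cells, ran from 6.21 through 6.37 to 6.56 in controls and from 6.26 through 6.44 to 6.67 in STZ livers. The groups overlapped, with STZ replicates 2 and 4 (6.65 and 6.67) above all controls, and the difference was 0.09 ± 0.07 (limma, adjusted p = 0.577, interval -0.07 to 0.25). Macrophage markers differed between the groups in the same livers. In limma 4 of 8 markers were higher, beside 5.09% of all genes: Cd5l (0.62 ± 0.15), Cd68 (0.47 ± 0.13), Vsig4 (0.41 ± 0.11) and Clec4f (0.31 ± 0.08). The list means were 8.49 to 8.91 in controls and 8.64 to 9.28 in STZ livers. Omitting 1 array at a time ended the call of Cd68 in 7 of 13 cases, that of Clec4f in 4, and that of Vsig4 in the one without STZ replicate 6 (limma, adjusted p = 0.0507), and the exact rank-sum test called 0 of the 8. Of 6 neutrophil markers, all below the median gene in level, none passed in limma or the exact rank-sum test, with a median difference of 0.13. In limma 3 were higher at an unadjusted p under 0.05 (smallest for Ly6g, 0.22 ± 0.08), beside 4156 of all 19938 genes in either direction. The part of these cells in the Hk3 values was not tested.

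Hexokinase 1, the form found in most tissues and bound to mitochondria, was measured by 2 single-symbol probe sets that did not resemble each other. The brighter one had a mean of 11.93 and is annotated with a single accession. That accession also names the 16 probe sets that the annotation gives to Hk1 and the ribosomal protein gene Rpl17 together, most of them with Gm6133 as well. The means of these 16 lay between 10.67 and 11.94, and over the 13 arrays they correlated with the brighter Hk1 probe set at Pearson r of 0.76 to 0.87. The dimmer one, annotated with the RefSeq transcripts of Hk1, had a mean of 6.32 and an r of 0.23 with the brighter. These correlations are over arrays normalised together and are given without a test. By its level and its course over the mice, the brighter probe set thus stands with the Rpl17 probe sets, and it is called Hk1 here only by its label. Which transcript it measures was not tested.

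The brighter Hk1 probe set ran from 11.69 through 11.91 to 12.06 in controls and from 11.77 through 11.94 to 12.11 in STZ livers, with the groups overlapping almost fully. Its difference was 0.02 ± 0.07 (limma, adjusted p = 0.929, interval -0.12 to 0.16). It turned to -0.02 in the fit without control replicate 2, in that without STZ replicate 2 and with array weights and is given without a direction. The dimmer probe set ran from 6.07 through 6.27 to 6.41 in controls and from 6.27 through 6.29 to 6.70 in STZ livers. STZ replicates 2 and 4 lay above all controls, at 6.57 and 6.70, as they did for Hk3, and the other 4 lay inside the control range. In the same fit with this probe set in place of the brighter one, a setting chosen after the data were seen, the Hk1 difference was 0.14 ± 0.08 and did not pass (limma, adjusted p = 0.335).

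**Figure D2:**
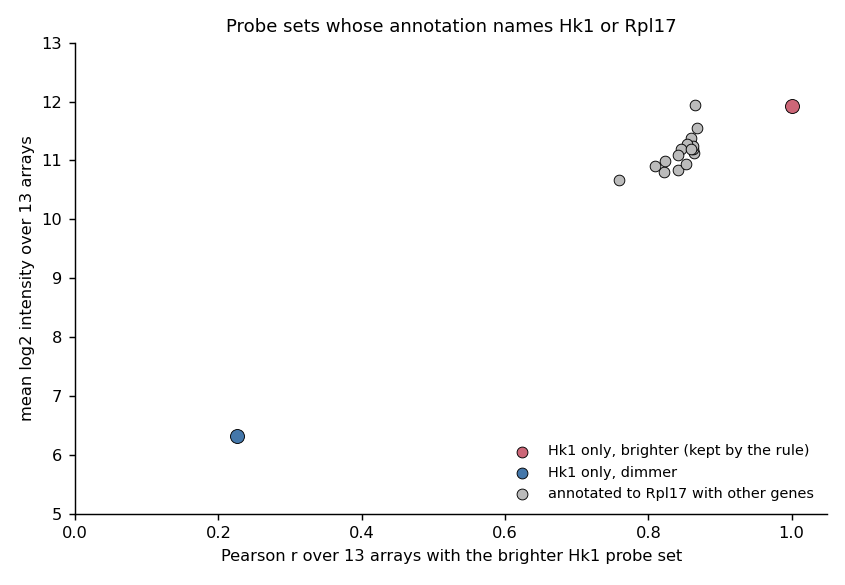
Mean log2 intensity over 13 arrays (vertical) of every probe set whose annotation names Hk1 or Rpl17, against its Pearson r with the brighter Hk1 probe set (horizontal; that probe set itself is at 1). The probe sets annotated to Rpl17 lie near the brighter Hk1 probe set, at means of 10.67 to 11.94, and the dimmer Hk1 probe set lies apart at 6.32.

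Around the first step, 5 other genes were measured. Slc2a1, the glucose carrier of the basal state in most cells and low in normal hepatocytes, was the one that passed: it ran from 8.73 through 8.81 to 9.04 in controls and from 9.06 through 9.35 to 9.47 in STZ livers. All 6 STZ mice lay above all 7 controls, as was the case for 2.30% of all genes. The difference was 0.45 ± 0.08 (limma, adjusted p = 0.00177), and 5.09% of all genes were called higher. Slc2a2, the main glucose carrier of hepatocytes, differed by -0.10 ± 0.11, and the groups overlapped (10.96 to 11.54 in controls, 10.80 to 11.45 in STZ livers). Slc2a4, the insulin-regulated carrier of muscle and fat, differed by -0.20 ± 0.07 and did not pass (limma, adjusted p = 0.0863), although it did without STZ replicate 2. The hexokinase relative Hkdc1 (0.03 ± 0.08) and the ADP-dependent sugar kinase gene Adpgk (-0.08 ± 0.07) did not pass either. The median difference of the 5 was -0.08.

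Phosphofructokinase, the second controlled step, was represented by the liver-type enzyme gene Pfkl and by Pfkfb3, which makes the activating signal metabolite. Pfkl ran from 7.92 through 8.15 to 8.35 in controls and from 7.78 through 8.03 to 8.13 in STZ livers. STZ replicates 2 and 3 lay below all controls and 4 of 6 overlapped them. Its difference of -0.14 ± 0.07 did not pass (limma, adjusted p = 0.320), with an interval of -0.29 to 0.02.

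Pfkfb3 showed the widest spread of any member among controls. It ran from 6.67 through 7.46 to 8.22 in controls, with replicates 3, 4 and 5 at 6.67 to 6.86 and replicates 1, 2, 6 and 7 at 7.46 to 8.22. In STZ livers it ran from 6.41 through 6.60 to 7.20, and 4 of 6 lay below all controls. The means were 7.31 ± 0.58 (SD, n = 7) and 6.70 ± 0.32 (SD, n = 6). The difference of -0.61 ± 0.22 was the second in size among the members and did not pass after adjustment (limma, adjusted p = 0.105, unadjusted p = 0.0136). Without control replicate 3, which held the lowest control value, it was -0.72 and passed (adjusted p = 0.0493), whereas omitting any of the 12 other arrays left it above the threshold. The SD of the controls was thus nearly as large as the difference between the groups.

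None of the 7 other genes of this step passed in limma. At an unadjusted p under 0.05 there were 2, the platelet-type enzyme gene Pfkp (0.25 ± 0.10) and the phosphatase-like regulator Tigar (-0.14 ± 0.06). Of all 19938 genes, 4156 had such a p. The exact rank-sum test called 0 of the 7. Pfkfb2 (0.22 ± 0.14) and Pfkfb4 (0.03 ± 0.06), which serve the same reaction as Pfkfb3, overlapped between the groups. The muscle-type enzyme gene Pfkm differed by -0.04 ± 0.06. Fructose bisphosphatase, the gluconeogenic opponent of phosphofructokinase, did not pass in its liver form Fbp1 (0.06 ± 0.05) or its muscle form Fbp2 (0.11 ± 0.07). The median of the 7 was 0.06.

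Tpi1, which interconverts the triose phosphates and serves both glycolysis and gluconeogenesis, was the one member whose groups did not overlap, as was the case for 3.86% of all genes (2.30% with every STZ mouse above the controls, 1.56% with every one below). It ran from 11.73 through 11.78 to 11.83 in controls and from 11.86 through 11.97 to 12.13 in STZ livers. The controls were the tightest of any member, 11.78 ± 0.04 (SD, n = 7), against 11.98 ± 0.09 (SD, n = 6), and STZ replicate 5 stood closest to them. The difference was a 1.15-fold increase with an interval of 0.10 to 0.30 on the log2 scale (limma, adjusted p = 0.0146). With the replicate numbers of the labels as a block it was 0.21 and did not pass (adjusted p = 0.0596). The call held whichever array was omitted, with differences of 0.17 to 0.23.

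The other reversible steps of lower glycolysis gave no call in limma among the 11 measured genes. At an unadjusted p under 0.05 there were 3, all higher, beside 4156 of all 19938 genes in either direction. The exact rank-sum test called 0. These 3 were the phosphoglycerate kinase gene Pgk1 (0.15 ± 0.06), the mutase gene Pgam1 (0.15 ± 0.07) and Ldhb, the heart-type lactate dehydrogenase gene (0.31 ± 0.12). Pgk1 lay above all controls in 5 of 6 STZ mice, and Pgam1 passed only without control replicate 2. Ldhb was highest in STZ replicate 4 (7.63), and the lowest difference with 1 array omitted, that without this mouse, was 0.17. Ldha, the main lactate dehydrogenase gene of liver, was -0.05 ± 0.05. The median over the 11 genes was 0.09. The muscle-type pyruvate kinase Pkm, the paralog of Pklr, was 8.50 ± 0.15 in controls and 8.54 ± 0.19 in STZ livers, a difference of 0.04 ± 0.09 that did not pass, with an interval of -0.14 to 0.22. Whether the kept probe set measures its gene was examined for Hk1 alone, and not for Pgk1, Pgam1, Ldhb or Pkm.

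**Figure D3:**
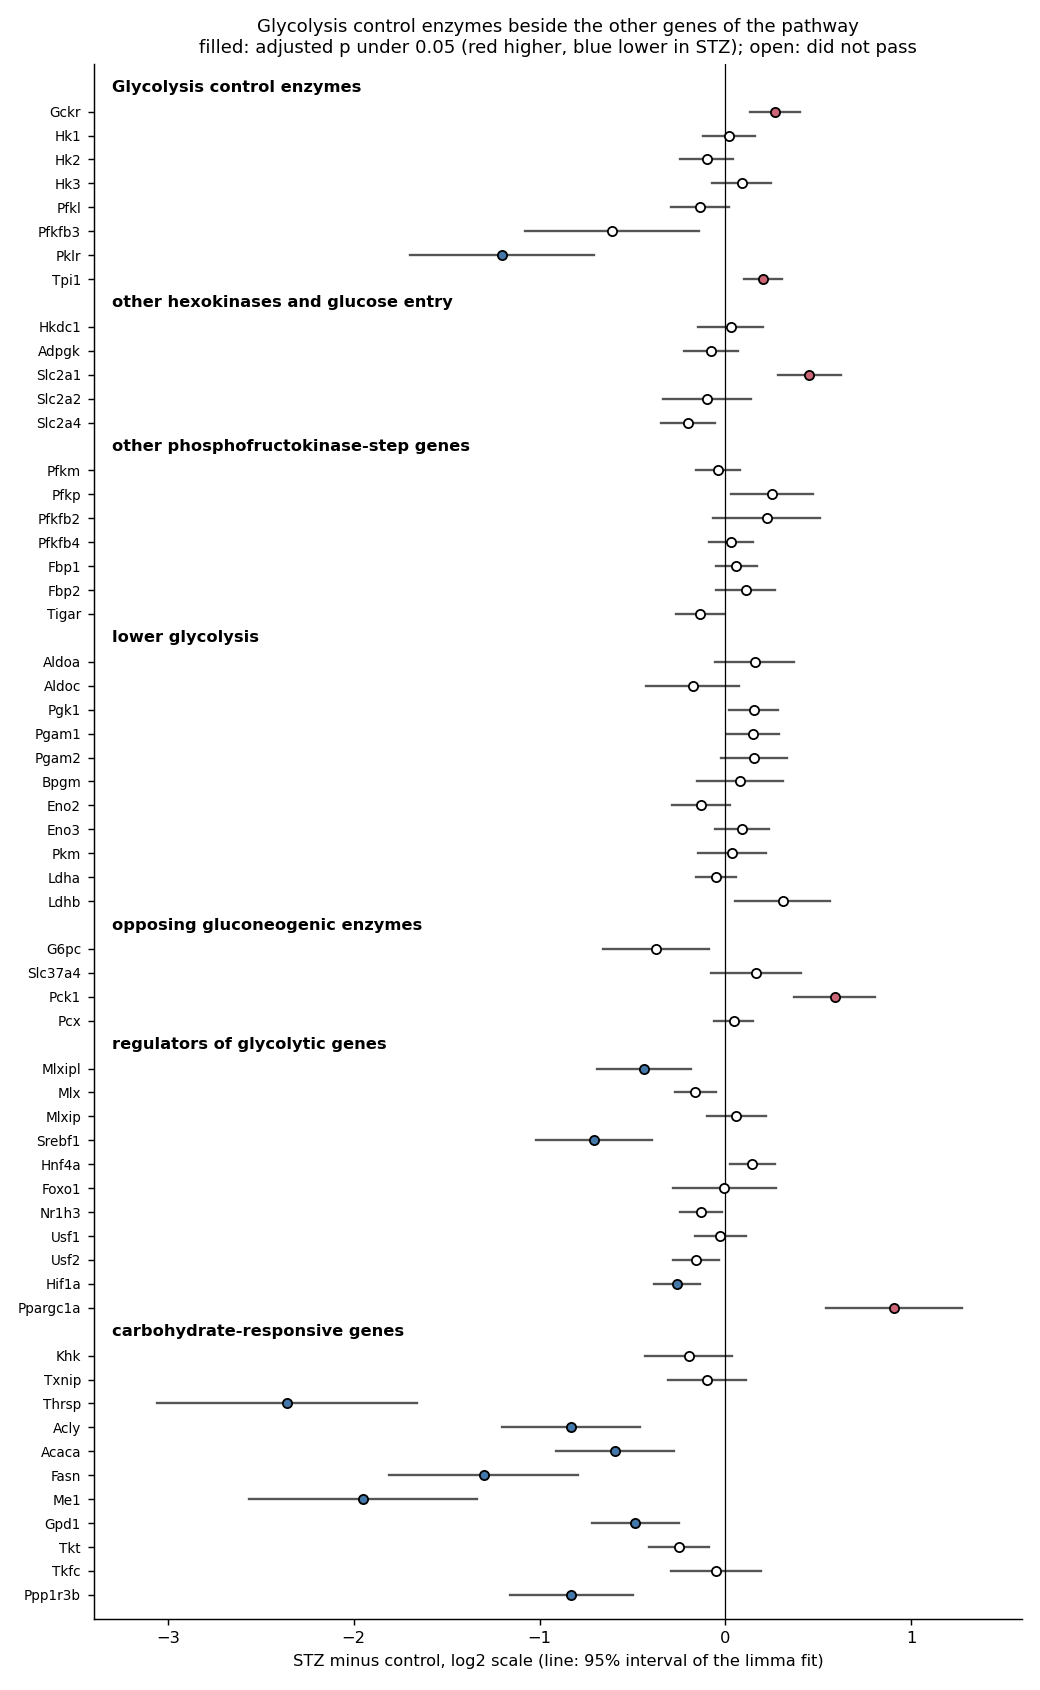
STZ minus control on the log2 scale for the 8 measured members and the other listed genes, with 95% intervals of the limma fit; filled points passed at an adjusted p under 0.05 (red higher, blue lower in STZ livers) and Fbp1, a member of 2 lists, is drawn once. The members range from -1.20 for Pklr to 0.27 for Gckr, the genes of lower glycolysis range from -0.18 for Aldoc to 0.31 for Ldhb with none filled, and the carbohydrate-responsive genes extend to -2.36.

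Pyruvate kinase of the liver, Pklr, changed most among the members. In controls it ran from 11.09 through 11.66 to 11.98, and in STZ livers from 9.69 through 10.17 to 11.33. The STZ mice were uneven: replicates 1, 2, 4 and 6, at 9.69, 9.89, 10.03 and 10.31, lay below every control, while replicates 3 and 5, at 11.16 and 11.33, lay above the lowest control, which was replicate 3. The means were 11.60 ± 0.27 (SD, n = 7) and 10.40 ± 0.68 (SD, n = 6), so that Pklr was 2.30-fold lower in STZ livers, with an interval of -1.70 to -0.71 on the log2 scale (limma, adjusted p = 0.00338). With any 1 of the 13 arrays omitted the call remained, with differences of -1.39 to -1.06. The exact rank-sum test, which uses the order of the mice and not the size of the gap, gave an adjusted p of 0.0628 and did not call it.

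Because Pklr is also expressed in red cell precursors, their markers are given beside it. Of 5 listed, 2 were measured: Alas2, the heme synthesis enzyme of erythroid cells, was lower by 1.58 ± 0.26 in STZ livers (limma, adjusted p = 0.000807), below all controls in 6 of 6, and the membrane protein gene Slc4a1 was -0.05 ± 0.08 and did not pass. Alas2 ran from 10.44 through 10.54 to 10.76 in controls and from 7.85 through 8.83 to 10.30 in STZ livers, highest in STZ replicate 5. The part of red cell precursors in the Pklr values was not tested. The hepatocyte markers had list means of 13.17 to 13.26 in controls and 13.17 to 13.24 in STZ livers, and Apoa1 (-0.23 ± 0.06) and Ttr (-0.18 ± 0.05) were lower and Cps1 (0.16 ± 0.04) higher. When arrays were omitted singly, Ttr passed in 2 and Cps1 in 8 of 13 cases.

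In limma both carbohydrate-linked transcription factors, Mlxipl and Srebf1, were lower in STZ livers, as was Hif1a, while Ppargc1a was higher. Of 11 measured regulators of glycolytic genes, limma thus called 3 lower and 1 higher, beside 4.04% and 5.09% of all genes. Their median difference was -0.13. The exact rank-sum test called 1 lower (Hif1a) and 1 higher (Ppargc1a), and neither Mlxipl nor Srebf1. Mlxipl, which encodes ChREBP, ran from 10.75 through 11.01 to 11.18 in controls and from 10.16 through 10.47 to 10.94 in STZ livers. Its STZ replicates 1, 2, 4 and 6 lay below all controls and replicates 3 and 5 (10.94 and 10.91) among them, the same split as in Pklr. The difference was -0.44 ± 0.12 (limma, adjusted p = 0.0284), and it lost the call in 6 of 13 cases when 1 array was omitted (without control replicates 4, 6 or 7, or STZ replicates 1, 2 or 4, adjusted p up to 0.0737). Srebf1, the gene of the insulin-driven factor SREBP-1c, differed by -0.71 ± 0.15 and lay below all controls in 4 of 6 STZ mice. Hif1a, the oxygen-sensitive factor that drives glycolytic genes in many cells, differed by -0.26 ± 0.06. Ppargc1a, a coactivator of the fasting programme, was higher by 0.91 ± 0.17 in 6 of 6 STZ mice. Mlx, the obligate partner of ChREBP (-0.16 ± 0.05, adjusted p = 0.0651), and the hepatocyte factor Hnf4a (0.15 ± 0.06, adjusted p = 0.138) did not pass in limma.

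Of 11 measured genes that, like Pklr, are known to respond to dietary carbohydrate, the exact rank-sum test called 5 lower and 0 higher. In limma 7 were lower, beside 4.04% of all genes, and none was higher. At an unadjusted p under 0.05 limma gave 8 lower and 0 higher, beside 4156 of all 19938 genes in either direction. The median difference was -0.59 beside -0.01 over all genes. The lower ones were Thrsp (-2.36 ± 0.33), a regulator of fat synthesis, malic enzyme Me1 (-1.95 ± 0.29), fatty acid synthase Fasn (-1.30 ± 0.24), citrate lyase Acly (-0.83 ± 0.18), Ppp1r3b (-0.83 ± 0.16), which targets a phosphatase to glycogen, acetyl-CoA carboxylase Acaca (-0.59 ± 0.15) and glycerol phosphate dehydrogenase Gpd1 (-0.48 ± 0.11). Thrsp fell from a control range of 11.35 to 12.31 to an STZ range of 8.56 to 10.96, and all 6 STZ mice lay below the controls. Fructokinase Khk (-0.20 ± 0.11), transketolase Tkt (-0.25 ± 0.08, adjusted p = 0.0528) and Txnip (-0.10 ± 0.10), another ChREBP target, did not pass in limma. Tkt passed without STZ replicate 3 or without STZ replicate 5.

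**Figure D4:**
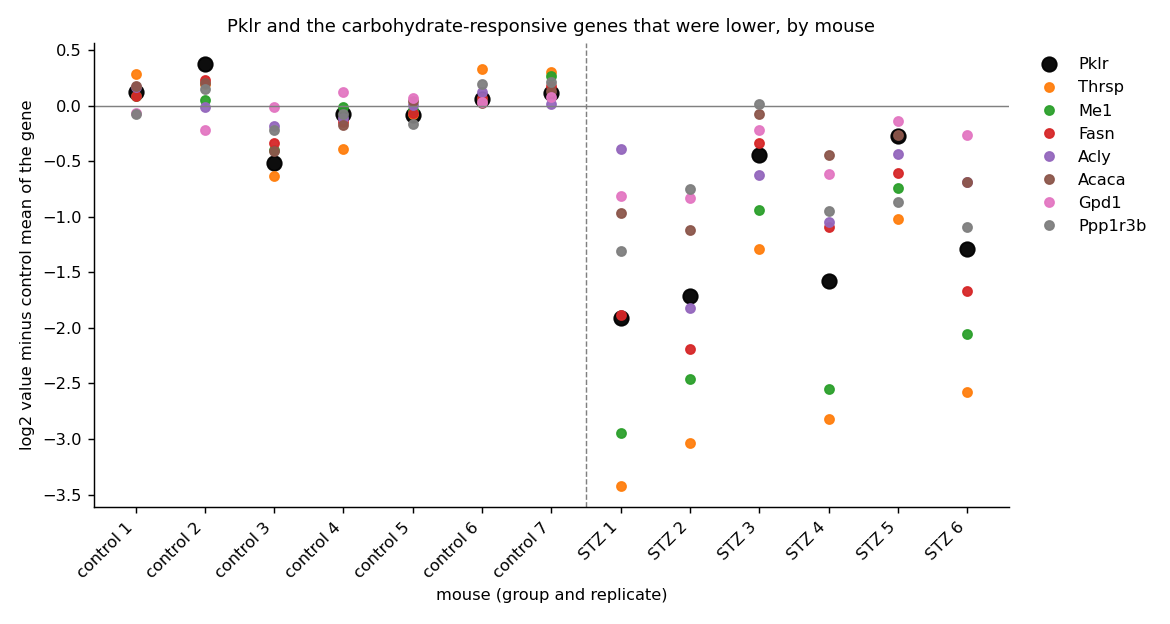
Log2 value minus the control mean of each gene in every mouse, for Pklr (large black points) and the 7 carbohydrate-responsive genes that were lower in STZ livers. In STZ replicates 3 and 5 Pklr lies within the control range (11.16 and 11.33 before the control mean was taken off), as does Acaca. Gpd1 does so only in replicate 5 (11.79), and Ppp1r3b only in replicate 3 (9.57, against 8.69 in replicate 5). Thrsp, Me1, Fasn and Acly lie below all controls in all 6 STZ mice, although for Fasn the closest values of the groups both round to 11.73. In replicates 1, 2, 4 and 6 Pklr lies below all controls (9.69 to 10.31).

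The order of the STZ mice in Pklr recurred in other genes, a pattern seen in the values and not tested. STZ replicates 3 and 5 held the highest and second highest STZ value in 5 of the 7 lower carbohydrate-responsive genes (Thrsp, Me1, Fasn, Acaca and Gpd1) and in all 3 lower regulators (Mlxipl, Srebf1 and Hif1a). The same was true of 290 of all 805 lower genes (36.0%) and of 1561 of all 19938 genes (7.83%). After the mean of each group was taken out, the genes closest to Pklr over the 13 arrays were Thrsp (Pearson r = 0.97), Me1 (0.96) and Mcee, a methylmalonyl-CoA epimerase gene (0.94). Mcee itself differed between the groups by 0.13 ± 0.05, which did not pass. Among the members, Pklr stood at r = -0.77 to Hk2 and at r = 0.32 to Gckr, and Hk2 at r = -0.75 to Gckr on the same measure. The 3 genes closest to Gckr were P2ry4 (0.89), Heatr6 (0.88) and 2610005L07Rik (0.87), and those closest to Tpi1 were Bmp10 (0.92), Arfgef2 (0.92) and Slc18a1 (0.91). These values were picked as the highest over all genes on 13 arrays that share their normalisation, and they are descriptions without a test.

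Glucose production runs against these steps through its own enzymes. Of 5 measured, Pck1, phosphoenolpyruvate carboxykinase, was higher by 0.59 ± 0.10 (limma, adjusted p = 0.00151), beside 5.09% of all genes called higher. The others did not pass, and the median difference of the 5 was 0.06. G6pc, which releases free glucose, differed by -0.37 ± 0.13 (limma, adjusted p = 0.103), the glucose 6-phosphate carrier Slc37a4 by 0.16 ± 0.11, and pyruvate carboxylase Pcx by 0.05 ± 0.05. Pck1 makes phosphoenolpyruvate from oxaloacetate, and pyruvate kinase, the product of Pklr, consumes it. The log2 value of Pklr minus that of Pck1, set to 0 at the control mean, lay between -0.38 and 0.40 in controls and between -2.59 and -0.51 in STZ livers, with 6 of 6 STZ mice below all controls. This value joins 2 genes that were each called, in opposite directions, and is a description that adds no support to either call. For the step above, Pfkl minus Fbp1 lay between -0.27 and 0.20 in controls and between -0.34 and 0.00 in STZ livers, and 2 of 6 STZ mice lay below all controls. A within-array difference shows unequal change of 2 genes and says nothing of enzyme activity.

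**Figure D5:**
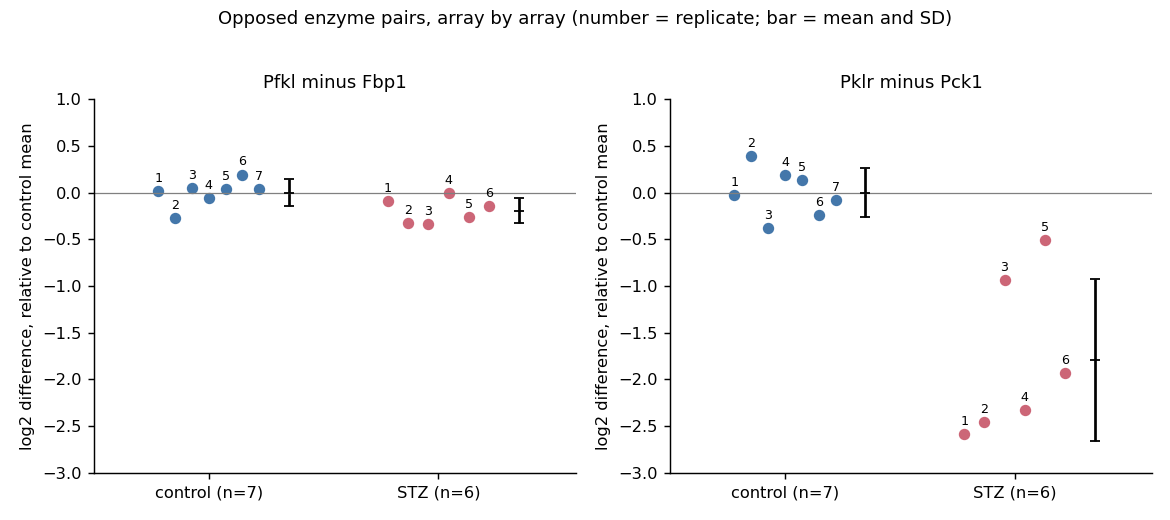
Log2 value of a glycolytic gene minus that of its gluconeogenic opponent in every mouse, set to 0 at the control mean; points carry the replicate number and bars show the mean and SD of 7 control and 6 STZ arrays. Pklr minus Pck1 is below all controls in 6 of 6 STZ mice (-2.59 to -0.51), while Pfkl minus Fbp1 overlaps between the groups.

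Glycolysis is denser in hepatocytes around the central vein, and some markers of the lobular zones differed between the groups. Over all genes, limma called 5.09% higher and 4.04% lower. Of 7 pericentral markers 3 were higher, Oat (0.52 ± 0.08), Axin2 (0.36 ± 0.08) and Slc1a2 (0.25 ± 0.06). The classic pericentral genes Glul (-0.18 ± 0.09, 4 of 6 STZ mice below all controls) and Cyp2e1 (-0.06 ± 0.04, 3 of 6 below) had the opposite sign and did not pass. Of 4 measured periportal markers 3 were higher, Pck1, Hal (0.51 ± 0.07) and Arg1 (0.31 ± 0.08), while Cyp2f2 (-0.08 ± 0.06) did not pass. The list means ran from 10.19 to 10.38 in controls and 10.36 to 10.68 in STZ livers for the pericentral list, and from 12.24 to 12.45 and 12.52 to 12.78 for the periportal one. Arg1 lost its call in 5 of 13 cases when 1 array was omitted. The exact rank-sum test called 3 pericentral and 2 periportal markers higher. Among other cell types, the endothelial list had 1 of 6 higher (Lyve1, 0.50 ± 0.11), which the exact rank-sum test did not call. The stellate list had 1 higher (Dcn, 0.35 ± 0.06) and 1 lower (Lrat, -0.47 ± 0.08) of 6. No marker of lymphocytes (5 measured), cholangiocytes (4), skeletal muscle (4) or pancreatic acinar cells (3) passed in limma or in the exact rank-sum test. At an unadjusted p under 0.05 in limma, met by 4156 of all 19938 genes, there were Epcam (0.26 ± 0.08) for cholangiocytes and Ckm (-0.29 ± 0.09) and Myh4 (-0.26 ± 0.08) for muscle. For the lists without any, the smallest p belonged to Cd3g (-0.17 ± 0.09) and Cela1 (-0.11 ± 0.05). The part of the zones and of other cells in the values of the members was not tested.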

How the data were processed

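Total RNA from 13 livers was labelled and hybridised to Affymetrix arrays, 1 array per mouse (7 control, 6 STZ). The deposited value table holds log2 intensities. The submitters' processing notes name RMA and Affymetrix Expression Console 1.2 as the tools the authors used. RMA normalises all arrays together and compresses differences of dim probe sets. Annotation version and genome build: not given in the sources used here. Of 35556 probe sets, 21789 had 1 gene symbol, 1621 had several and 12146 were not listed, and the brightest single-symbol probe set stood for each of 19938 genes. STZ was compared with control livers by limma 3.58.1 (R 4.3.3; lmFit and eBayes, no covariates) over all genes, with Benjamini-Hochberg adjustment and a threshold of 0.05. On simulated data, 89 of 100 genes changed by 0.5 on the log2 scale were recovered and 6 of 19738 unchanged genes were called. The simulated noise was independent between genes and had the same SD in both groups. In the real data the spread can differ between groups, as for Pklr (SD 0.27 in controls, 0.68 in STZ livers). The simulation therefore checks the code and does not give the power of the test in these livers. The text names all members, and all genes of the lists of hexokinases and glucose entry, of the phosphofructokinase step and of gluconeogenic enzymes. From each other list it names up to 4 passing genes with the largest difference, or the gene with the smallest p where none passed. For each member that passed it names the 3 genes of highest correlation. All other genes were chosen after their values were seen. The members and lists were chosen with earlier results of these data known. Titles number the replicates in both groups but do not link them, so no pairing was used. Alternatives were 11 other settings and the omission of each of the 13 arrays. The labels also carry a number, 1 to 7 in controls and 29 to 32, 40 and 42 in STZ mice. An effect that follows these numbers cannot be told apart from the treatment. 1 of the 11 settings kept, of the STZ arrays, only those numbered 29 to 32. Promoters came from RefSeq, GRCm38.p6. Python 3.11.15, pandas 2.3.3 and matplotlib 3.10.9 served for motifs and figures.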

Additional observations from a re-analysis of the deposited data

How the results depend on the processing

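The call of Gckr held under all 11 other settings and with each of the 13 arrays left out (0.24 to 0.31). Of these settings, the dimmer Hk1 probe set exchanges the values of Hk1 alone and is no check on Gckr, Pklr or any other gene. The mean of all probe sets likewise left the difference of every measured member but Hk1 as it was (Gckr 0.266). It is therefore no check on those members either. The exact rank-sum test did not call Pklr (-1.20, adjusted p = 0.0628), against adjusted p-values of 0.000711 to 0.0244 under the other 10 settings, while leaving out arrays gave -1.39 to -1.06. That test called 623 genes higher, 465 lower, 0 members lower (2 at an unadjusted p under 0.05; limma called Pklr) and 6 pathway genes lower against 10. With the replicate number as a block over replicates 1 to 6, Tpi1 was 0.21 (adjusted p = 0.0596), 1 member was called higher and 524 genes lower. Same-numbered arrays share only a number: the correlations of their deviations ran from -0.086 to 0.19, with 2 of 6 over 0.1, and 1 of 6 STZ arrays was closest to its own number. The brighter Hk1 probe set turned to -0.0217 with array weights and ran from -0.0213 to 0.0525 when arrays were left out, and Pfkfb3 ran from -0.72 to -0.46, so that 1 to 2 members were called lower. Scaling moved the median of all genes by no more than 0.02. Hk2 and Hk3 fell outside the filter on dim genes. The causes of these changes were not tested. Dim signals limit Hk2, Hk3 and the dimmer Hk1 probe set, and Pfkfb1 was not analysed here.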
